A study of Homo sapiens with 9 samples.

Results

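The enzymes that make nucleotides and the folate-bound carbon units used in that synthesis were examined as a set of 37 genes in SKMEL28, an established human melanoma cell line. The set was chosen by gene symbol, from the roles of the enzymes and with no use of measured values in the rule, and each of the 37 symbols stood on 1 row of the 48162 genes of the deposited tables. Earlier results of these data were known when the set was chosen. RNA was sequenced from cells transduced with lentivirus for a short hairpin targeting GFP (shCont), p16 (shp16), or p16 together with ATR (shp16+shATR), with 3 libraries in each group. All 3 groups were grown in medium with 5% serum and selected for 3 days with 1 µg per ml puromycin, so each group had received virus and antibiotic. The paper describes its panel of LSS mRNA as 1 experiment with 3 technical replicates. It does not say how the sequenced libraries were replicated. The p-values therefore measure the spread between these libraries and cannot be taken to measure that between separate infections.

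Cells build purines on ribose phosphate, carried by the sugar donor PRPP, and build the pyrimidine ring first and attach it to PRPP afterwards. Folate enzymes supply single carbons for the purine ring and for the methyl group of thymidylate. Ribonucleotide reductase then turns ribonucleotides into the deoxynucleotides that DNA replication consumes, and several of these enzymes are known to be made mainly in cells that are copying DNA. p16, encoded by CDKN2A, is an inhibitor of the cyclin-dependent kinases that start the cell cycle, and ATR is the kinase that responds to stalled replication. The study knocked down p16 with or without ATR to ask how the transcriptome differed, and the comparisons that follow set shp16 against shCont, then shp16+shATR against shp16 (ATR knockdown on top of p16 knockdown), and finally shp16+shATR against shCont, which shares its libraries with the others.

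The libraries held between 17314662 and 23588174 counts. Counts were normalized by the TMM method, and levels are given as TMM-normalized FPKM. These are counts scaled by the length of the gene and by the normalized size of the library. Comparisons between genes also depend on how reads shared by overlapping genes were counted, which was not given in the sources used here. A gene was called higher or lower at a Benjamini-Hochberg adjusted p under 0.05 in edgeR's quasi-likelihood test over the 15776 genes that passed its filter on low counts. ATR had 5.57, 11.3 and 11.7 FPKM in shCont, 11.3, 10.1 and 10.4 with shp16 and 4.84, 4.85 and 4.98 with shp16+shATR, so the library labelled shCont replicate 1 lay near the ATR knockdown libraries. CDKN2A had 126, 87.7 and 80.4 FPKM in shCont, 60.9, 72.9 and 77.8 with shp16 and 64.4, 70.2 and 64.2 with shp16+shATR, and its log2 fold change in shp16 was -0.48 ± 0.16 (SE, adjusted p = 0.0723). That control library differed from the other 2 shCont libraries by a chi-square of 68.5 and 83.4 per gene, against 5.15 between the other 2. The library labelled shp16 replicate 1 also stood apart, by 37.9 and 37.2 per gene against 1.94 between the other 2 shp16 libraries, and it had 1182 FPKM of the melanosome gene PMEL against 2843 and 2816. The counts of called enzymes are therefore also given without each of these libraries. The melanocyte lineage markers summed to between 2726 and 5685 FPKM in every library and the endothelial and immune markers to at most 0.688. The 5 fibroblast markers summed to between 8.89 and 14.8 FPKM, nearly all of it LUM, with at least 8.65 FPKM, while DCN and COL3A1, called higher in shp16+shATR against shCont, had at most 0.333 and 0.166. The 4 keratinocyte and epithelial markers summed to between 0.593 and 0.934 FPKM in shCont and between 5.78 and 7.17 in the other 6 libraries, led by CDH1, and the part of these markers in the results was not tested.

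Of the 37 enzymes, 36 passed the filter, and their counts per library ran from 123 to 7702. NME2, a nucleoside diphosphate kinase, was listed at 0 counts in all 9 libraries. Its row overlaps those of NME1, its closest relative, and of the NME1-NME2 read-through, which had 4.21 to 9.45 and 0.78 to 2.03 FPKM, and how the counting treated reads shared by these rows was not given in the sources used here. In shCont and in shp16 the 5 highest mean levels were those of ATIC (134, 116 and 139 FPKM as the means of shCont, shp16 and shp16+shATR), IMPDH2 (116, 144 and 131), DTYMK (119, 106 and 107), RRM2 (91.1, 79.9 and 50.2) and PAICS (90.1, 88.6 and 85.2), while in shp16+shATR RRM2 lay below APRT (68.6) and 4 more enzymes that it exceeded in shCont. The lowest of the tested enzymes were SAMHD1 (1.80, 2.55 and 1.92 FPKM), which removes deoxynucleotides, and TK2 (2.36, 1.72 and 2.44), the mitochondrial thymidine kinase.

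Promoter sequence is shown for the 5 enzymes called in shp16+shATR against shp16, because 4 of them fell together and 1 rose. The 250 bases before the most upstream RefSeq start of each gene are printed 5′ to 3′ along the gene, from GRCh38.p14. These are chrX:107628260-107628509 on the plus strand for PRPS1, chr2:10122318-10122567 on the plus strand for RRM2, chr18:657403-657652 on the plus strand for TYMS, chr2:74198365-74198614 on the plus strand for MTHFD2 and chr1:244452061-244452310 on the minus strand for ADSS, which RefSeq calls ADSS2. Capitals mark any match, on either strand, to an E2F word (TTTCCCGC, TTTCGCGC, TTTGCCGC or TTTGGCGC), the MYC E-box (CACGTG), an ATF4 word (TGATGNAA) or the CCAAT box (CCAAT).
PRPS1: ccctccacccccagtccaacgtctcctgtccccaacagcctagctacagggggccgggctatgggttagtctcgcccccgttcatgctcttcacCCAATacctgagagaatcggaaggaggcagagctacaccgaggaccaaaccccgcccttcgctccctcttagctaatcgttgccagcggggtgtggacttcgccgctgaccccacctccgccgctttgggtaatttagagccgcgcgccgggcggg
RRM2: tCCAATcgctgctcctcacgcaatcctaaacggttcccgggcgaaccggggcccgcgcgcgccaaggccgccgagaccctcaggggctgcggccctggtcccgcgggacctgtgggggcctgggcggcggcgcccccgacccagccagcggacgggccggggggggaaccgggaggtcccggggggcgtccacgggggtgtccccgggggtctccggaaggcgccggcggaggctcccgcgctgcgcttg
TYMS: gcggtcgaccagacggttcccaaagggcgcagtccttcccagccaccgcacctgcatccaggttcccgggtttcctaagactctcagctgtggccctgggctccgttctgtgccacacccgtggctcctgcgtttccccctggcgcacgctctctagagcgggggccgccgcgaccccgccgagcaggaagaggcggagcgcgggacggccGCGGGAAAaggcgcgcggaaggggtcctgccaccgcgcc
MTHFD2: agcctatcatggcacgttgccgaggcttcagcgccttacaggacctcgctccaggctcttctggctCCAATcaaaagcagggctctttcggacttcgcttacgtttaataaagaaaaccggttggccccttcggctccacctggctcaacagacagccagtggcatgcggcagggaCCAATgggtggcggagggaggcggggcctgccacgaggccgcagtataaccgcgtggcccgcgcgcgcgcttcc
ADSS: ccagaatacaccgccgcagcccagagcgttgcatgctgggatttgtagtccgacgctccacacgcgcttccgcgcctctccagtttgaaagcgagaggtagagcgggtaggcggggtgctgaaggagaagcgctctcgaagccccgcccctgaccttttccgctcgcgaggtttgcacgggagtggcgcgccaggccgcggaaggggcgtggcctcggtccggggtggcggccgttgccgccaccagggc
TYMS held 1 E2F word, on the minus strand and ending 32 bases before the start, and MTHFD2 held 2 CCAAT boxes, PRPS1 held 1 and RRM2 held 1 in these bases. ADSS held none of the 4 motifs.

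The coordinates of the deposited tables were taken as those of GRCh37, while the promoter coordinates are those of GRCh38.p14. In the former, the genes that fell were PRPS1 at chrX:106871737-106894256, RRM2 at chr2:10262455-10271545, TYMS at chr18:657604-673578 and MTHFD2 at chr2:74425689-74444692, each on the plus strand. ADSS, which rose, is at chr1:244571796-244615436 on the minus strand. The other genes called in shp16 against shCont are RPIA at chr2:88991162-89050452 and PFAS at chr17:8150936-8173809 on the plus strand and SAMHD1 at chr20:35518632-35580246 on the minus strand.

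Over the whole set, RefSeq windows of 300 bases, with 250 before the start and 50 after it, were found for 35 of the 37 enzymes. An E2F word lay in a window of 5 enzymes (DCK, DUT, GART, PRPS2 and TYMS), against 3.99% of the 27305 genes with a window. The E-box lay in a window of 8 (ATIC, DCK, DHODH, MTHFD1, MTHFD1L, NME1, PAICS and PPAT), against 8.77% of genes. The CCAAT box lay in a window of 15, against 39.7%, and the ATF4 word in 1, MTHFD1L, against 4.46%. These are matches of letters in a short window and give no measure of binding.

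In shp16 against shCont, 4 of the 36 tested enzymes were higher and 0 were lower. The backgrounds over all genes tested were 7.23% called higher and 7.59% called lower. The 4 were RPIA, PFAS, TYMS and SAMHD1, which stand in different steps of the pathways, and their log2 fold changes lay between 0.40 and 0.50. The median log2 fold change of the 36 enzymes was 0.03, and that of all genes tested was -0.02. Libraries of the 2 groups did not overlap for 14 enzymes, 8 with shp16 above and 6 with shp16 below, against 33.6% of all genes. Without the library labelled shCont replicate 1, 10 enzymes were higher and 2 lower, and the backgrounds became 13.4% and 12.5%. Without the library labelled shp16 replicate 1, RPIA alone was called (0.55, adjusted p = 0.0380), against backgrounds of 4.52% higher and 4.43% lower, and PFAS, TYMS and SAMHD1 had adjusted p-values of 0.0814, 0.0761 and 0.0747. With upper-quartile scaling 1 enzyme was higher and 1 lower, against backgrounds of 5.84% and 9.35%. A fit of only these 6 libraries called 0 enzymes, with 7 at an unadjusted p under 0.05, and 7.83% of all genes.

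With ATR knocked down as well, in shp16+shATR against shp16, 1 enzyme was higher and 4 were lower, against backgrounds of 2.73% and 3.49%. ADSS rose, and PRPS1, RRM2, TYMS and MTHFD2 fell. The log2 fold change was negative for 29 of the 36 enzymes, with a median of -0.21, while the median of all genes tested was 0.00. Libraries did not overlap for 25 enzymes, 5 above and 20 below, against 37.7% of all genes. Leaving out the library labelled shCont replicate 1, which enters this comparison through the shared estimate of the spread, gave 5 enzymes higher and 14 lower with a background of 19.9% in both directions together, and the median was -0.20. When shp16 replicate 1 was left out, 1 enzyme was higher and 3 lower, against backgrounds of 1.29% and 1.83%, and the call of TYMS was lost (-0.41, adjusted p = 0.120). With any 1 of the 9 libraries left out, the TYMS call was kept in 1 fit.

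Against shCont, shp16+shATR had 1 enzyme higher (RPIA) and 6 lower (PRPS1, PRPS2, RRM2, DCK, TK1 and MTHFD2), against backgrounds of 10.9% and 12.7%. The median log2 fold change was -0.15 and that of all genes tested -0.02. Libraries of these groups did not overlap for 16 enzymes, against 41.5% of all genes. Without the library labelled shCont replicate 1 the median was -0.05, 3 enzymes were higher and 9 were lower, with a background of 33.3%. Leaving out shp16 replicate 1, which enters here through the shared spread, 2 were higher and 7 lower, with a background of 24.2%.

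**Figure D1:**
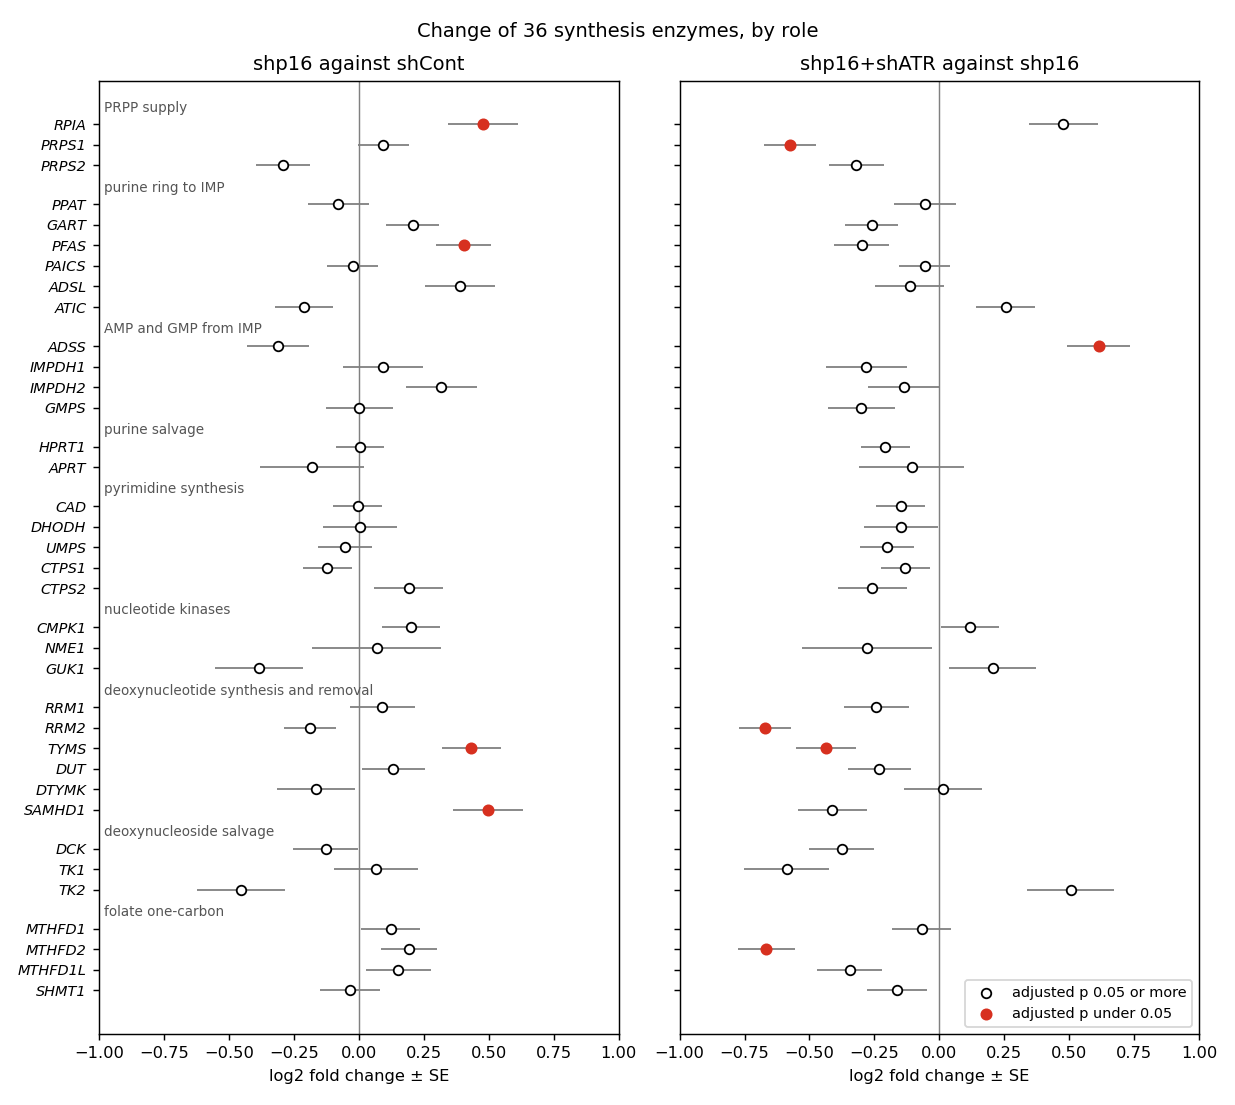
Log2 fold change (horizontal axis, with the standard error as a bar) of the 36 tested enzymes, grouped by role, in shp16 against shCont (left) and in shp16+shATR against shp16 (right). Filled points had an adjusted p under 0.05 in edgeR's quasi-likelihood test: 4 enzymes on the left, all to the right of 0, and 5 on the right, of which 4 lie to the left of 0.

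The supply of PRPP showed opposite directions within 1 short pathway. RPIA isomerizes ribulose phosphate to the ribose phosphate from which PRPP is made, and it had 4.92, 6.25 and 4.87 FPKM in shCont, 6.69, 7.83 and 7.81 with shp16 and 10.05, 10.6 and 10.4 with shp16+shATR. The 3 groups did not overlap, and RPIA was the enzyme with the largest rise of the 36 from shCont to shp16+shATR. Its log2 fold change was 0.48 ± 0.14 (SE) in shp16 against shCont (adjusted p = 0.0362), 0.48 ± 0.13 in shp16+shATR against shp16 (adjusted p = 0.0566) and 0.96 ± 0.14 in shp16+shATR against shCont (adjusted p = 0.000468). The first of these calls was kept in 6 of 20 alternative analyses and the last in 19 of 19.

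PRPS1 and PRPS2 are isozymes of PRPP synthetase. PRPS1 had 26.6, 29.0 and 30.0 FPKM in shCont, 31.6, 30.2 and 29.6 with shp16 and 19.3, 20.7 and 21.4 with shp16+shATR. Its shp16+shATR libraries lay below the other 6, with a log2 fold change of -0.57 ± 0.10 against shp16 (SE, adjusted p = 0.00663), 1.49-fold lower, while shCont and shp16 overlapped. PRPS2 had 39.6, 40.1 and 44.4 FPKM in shCont, 37.03, 31.8 and 32.5 with shp16 and 26.9, 25.9 and 28.4 with shp16+shATR, in 3 groups that did not overlap. Its log2 fold changes were -0.29 ± 0.10 (SE, adjusted p = 0.0835) in shp16 against shCont and -0.32 ± 0.10 (adjusted p = 0.1004) with ATR knocked down as well, and the fall from shCont to shp16+shATR was -0.61 ± 0.10 (adjusted p = 0.00153). The PRPS2 to PRPS1 ratio was 1.45 ± 0.0579 (SD, n = 3) in shCont, 1.11 ± 0.0580 with shp16 and 1.32 ± 0.0690 with shp16+shATR. In this ratio shCont, with a lowest value of 1.38, and shp16+shATR, with a highest of 1.39, overlapped. The summed level of RPIA, PRPS1 and PRPS2 ran from 71.1 to 79.3 FPKM in shCont, from 69.8 to 75.4 with shp16 and from 56.3 to 60.2 with shp16+shATR.

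**Figure D2:**
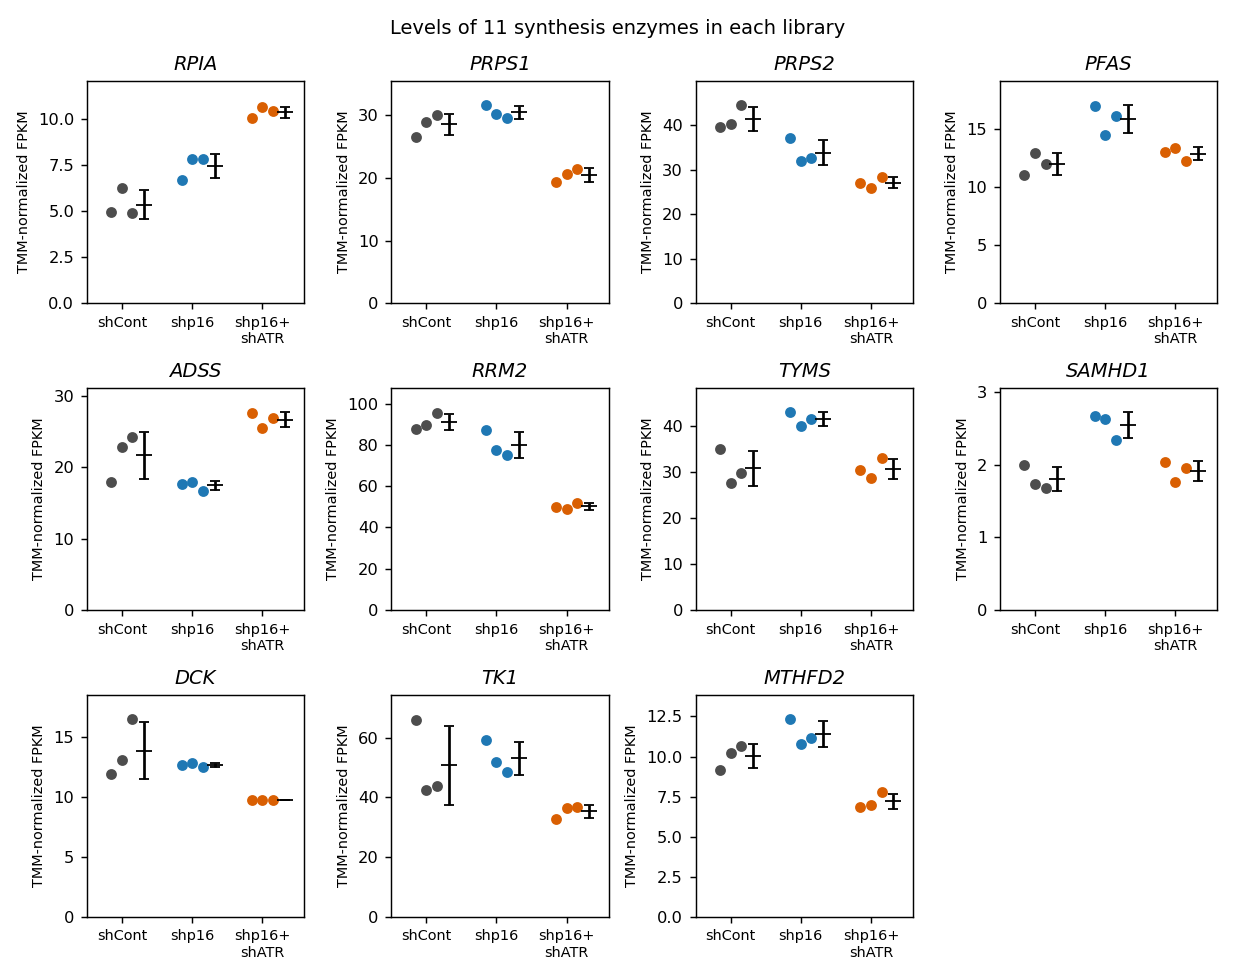
TMM-normalized FPKM (vertical axes, starting at 0) of the 11 enzymes with an adjusted p under 0.05 in any of the 3 comparisons. Each point is 1 library, and the bar beside it shows the mean and SD of the 3 libraries of its group; RRM2, PRPS1, PRPS2, DCK, TK1 and MTHFD2 have their shp16+shATR libraries below the other 6, and RPIA and ADSS have them above.

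Of the 6 enzymes that build the purine ring up to IMP, 1 was called, PFAS, in shp16 against shCont. PFAS adds an amide nitrogen from glutamine to the growing ring, and it had 11.1, 12.9 and 12.0 FPKM in shCont, 17.0, 14.5 and 16.1 with shp16 and 13.0, 13.4 and 12.2 with shp16+shATR. The shp16 libraries lay above the other 6. Its log2 fold change was 0.40 ± 0.11 (SE, adjusted p = 0.0265) in shp16 against shCont, a call kept in 12 of 20 alternatives, and -0.30 ± 0.11 (adjusted p = 0.131) with ATR knocked down as well.

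The other 5 of these enzymes passed the threshold in none of the 3 comparisons. ADSL, which also acts in the step from IMP to AMP, had the next largest difference between shp16 and shCont, 0.39 on the log2 scale (adjusted p = 0.073). GART, which carries out 3 steps of ring synthesis in 1 protein and takes a carbon from folate, had a log2 fold change of 0.21 in shp16 against shCont, and one of -0.26 followed for shp16+shATR against shp16, with no overlap of libraries in either comparison. ATIC, which closes the ring, had log2 fold changes of -0.21 and 0.25 in the same comparisons. PPAT, which commits PRPP to purine synthesis, and PAICS, which is transcribed from the same short interval in the opposite direction, had log2 fold changes between -0.14 and -0.02 in the 3 comparisons. The summed level of the 6 enzymes was 343 ± 22.9 FPKM in shCont, 350 ± 30.7 with shp16 and 352 ± 7.51 with shp16+shATR (SD, n = 3 each), differences smaller than the spread of shCont and shp16.

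Downstream of IMP, 1 enzyme was called with all 9 libraries, ADSS. ADSS, adenylosuccinate synthetase, commits IMP to AMP, and it had 18.0, 22.8 and 24.2 FPKM in shCont, 17.7, 17.9 and 16.7 with shp16 and 27.6, 25.5 and 26.9 with shp16+shATR. The shp16+shATR libraries lay above the other 6. The log2 fold change was 0.61 ± 0.12 against shp16 (SE, adjusted p = 0.0128), 1.53-fold higher, and 0.30 ± 0.12 against shCont (adjusted p = 0.0914). The call against shp16 was kept in 13 of 19 alternatives, and in shp16 against shCont ADSS had -0.31 ± 0.12 (adjusted p = 0.108).

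On the GMP branch no enzyme was called with all 9 libraries. IMPDH1 and IMPDH2, isozymes of the dehydrogenase that commits IMP to GMP, had log2 fold changes of 0.09 and 0.32 in shp16 against shCont and of -0.28 and -0.14 in shp16+shATR against shp16. Without the library labelled shCont replicate 1 both were called in the former (adjusted p = 0.0204 and 0.00598) and IMPDH1 in the latter (adjusted p = 0.0236). The IMPDH2 to IMPDH1 ratio was 2.10 ± 0.165 (SD, n = 3) in shCont, 2.42 ± 0.0561 with shp16 and 2.67 ± 0.0778 with shp16+shATR, with no overlap between the groups. GMPS, which finishes GMP, had log2 fold changes of 0.00 and -0.30 (adjusted p = 0.221 for the latter). The salvage enzymes HPRT1 and APRT, which rebuild purine nucleotides from free bases, were called in none of the 3 comparisons. HPRT1 ran from 38.3 to 41.5 FPKM in the 6 shCont and shp16 libraries and from 33.5 to 35.8 in shp16+shATR. APRT had 120 FPKM in the library labelled shCont replicate 1 and between 63.6 and 77.8 in the other 8.

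None of the 5 enzymes of pyrimidine synthesis was called in the 3 comparisons. They are CAD, which carries the opening 3 activities of the pathway, DHODH, the mitochondrial step, UMPS, which attaches PRPP, and the CTP synthases CTPS1 and CTPS2. The log2 fold changes of these 5 enzymes in shp16+shATR against shp16 lay between -0.26 and -0.13. Libraries of these groups did not overlap for 3 of the 5, CAD, CTPS1 and CTPS2, against 37.7% of all genes. CAD had 29.3, 28.6 and 28.5 FPKM with shp16 and 26.1, 26.3 and 25.6 with shp16+shATR, a difference of -0.15 on the log2 scale with an SE of 0.09 (adjusted p = 0.423). The summed level of the 5 was 87.4 ± 1.03 FPKM in shCont, 85.0 ± 1.97 with shp16 and 76.0 ± 1.27 with shp16+shATR (SD, n = 3 each), and the shp16+shATR libraries lay below the other 6. The CTPS1 to CTPS2 ratio ran from 5.08 to 6.43 in shCont, from 3.90 to 5.25 with shp16 and from 4.95 to 5.35 with shp16+shATR. The groups overlapped in this ratio. Of the nucleotide kinases CMPK1, NME1 and GUK1, which charge monophosphates and diphosphates, none was called. CMPK1 had log2 fold changes of 0.20 and 0.12 in these comparisons and of 0.32 from shCont to shp16+shATR (adjusted p = 0.0612), and GUK1 had 83.9 FPKM in the library labelled shCont replicate 1 against 46.4 to 56.0 in the other 8.

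The deoxynucleotide enzyme RRM2 had the largest fall of the 36 from shCont to shp16+shATR, while against shp16 its fall and that of MTHFD2 differed by less than their standard errors. RRM2 is the small subunit of ribonucleotide reductase, made in S phase, and it had 87.9, 89.8 and 95.5 FPKM in shCont, 87.2, 77.7 and 75.0 with shp16 and 49.9, 48.8 and 51.9 with shp16+shATR. The shp16+shATR libraries lay well below the other 6, and the shp16 libraries lay just below those of shCont. The log2 fold change was -0.67 ± 0.10 against shp16 (SE, adjusted p = 0.00328), 1.59-fold lower, and -0.86 ± 0.10 against shCont (adjusted p = 0.000126), 1.81-fold lower. It passed the threshold in 19 of 19 alternatives in each of these comparisons, with values from -0.72 to -0.61 and from -0.89 to -0.83. In shp16 against shCont RRM2 had -0.19 ± 0.10 (adjusted p = 0.237).

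RRM1, the large subunit, had 66.8 ± 8.58 FPKM with shp16 and 56.5 ± 3.86 with shp16+shATR (SD, n = 3 each), and its log2 fold change was -0.24 ± 0.13 (SE, adjusted p = 0.315). The RRM1 to RRM2 ratio was therefore 0.688 ± 0.0515 in shCont, 0.834 ± 0.0396 with shp16 and 1.12 ± 0.0423 with shp16+shATR, with no overlap between groups. RRM2B, the small subunit that is not tied to S phase and is not in the set, had 7.35, 7.62 and 6.14 FPKM as the means of the 3 groups. The RRM2 pseudogene RRM2P3 had at most 0.265 FPKM in any library.

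TYMS, thymidylate synthase, had 35.0, 27.7 and 29.7 FPKM in shCont, 43.2, 40.0 and 41.6 with shp16 and 30.5, 28.6 and 33.1 with shp16+shATR. The shp16 libraries lay above the other 6, and those of shCont and shp16+shATR overlapped. Its log2 fold change was 0.43 ± 0.11 (SE, adjusted p = 0.0265) in shp16 against shCont and -0.44 ± 0.11 (adjusted p = 0.0450) in shp16+shATR against shp16, calls kept in 11 of 20 and 10 of 19 alternatives. With each of the 9 libraries left out in turn, the former call was kept in 3 fits and the latter in 1. The 3′ end of TYMS overlaps that of ENOSF1, which lies on the other strand, and the strand setting of the counting was not given in the sources used here. ENOSF1 had 11.9, 9.39 and 9.32 FPKM as the means of the 3 groups.

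SAMHD1, the hydrolase that removes deoxynucleotides, had 1.99, 1.73 and 1.68 FPKM in shCont, 2.67, 2.63 and 2.34 with shp16 and 2.04, 1.76 and 1.95 with shp16+shATR. The shp16 libraries again lay above the other 6. Its log2 fold change was 0.50 ± 0.13 (SE, adjusted p = 0.0288) in shp16 against shCont, kept in 7 of 20 alternatives, and -0.41 ± 0.13 (adjusted p = 0.0991) when ATR was also knocked down. The RRM2 to SAMHD1 ratio was 50.9 ± 6.43 (SD, n = 3) in shCont, 31.4 ± 1.62 with shp16 and 26.3 ± 1.63 with shp16+shATR, with no overlap between groups. DUT, which keeps uracil out of DNA, and DTYMK, which makes dTDP, were called in none of the comparisons, and DTYMK had 153 FPKM in the library labelled shCont replicate 1 against 96.8 to 111 in the other 8.

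The salvage kinases TK1 and DCK were lower in shp16+shATR against shCont. TK1, the cytosolic thymidine kinase made in S phase, had 66.1, 42.4 and 44.0 FPKM in shCont, 59.2, 52.0 and 48.4 with shp16 and 32.9, 36.4 and 36.8 with shp16+shATR. Its shp16+shATR libraries lay below the other 6, with log2 fold changes of -0.52 ± 0.16 against shCont (SE, adjusted p = 0.0373) and -0.59 ± 0.16 against shp16 (adjusted p = 0.0556). The fall against shCont was -0.29 without the library labelled shCont replicate 1 (adjusted p = 0.0301). The call of TK1 against shCont was kept in 12 of 19 alternatives. With each of the 9 libraries left out in turn, it was kept in 4 fits.

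DCK, deoxycytidine kinase, had 11.9, 13.1 and 16.5 FPKM in shCont, 12.7, 12.9 and 12.5 with shp16 and 9.79, 9.72 and 9.77 with shp16+shATR. Its fall against shCont was -0.51 ± 0.12 on the log2 scale (SE, adjusted p = 0.0125), a call kept in 17 of 19 alternatives, and against shp16 it had -0.38 ± 0.12 (adjusted p = 0.104). The mitochondrial kinase TK2 had the opposite sign against shp16, 0.50 ± 0.17 (adjusted p = 0.106), with 1.25, 1.90 and 2.01 FPKM with shp16 and 2.44, 2.58 and 2.31 with shp16+shATR. The TK1 to TK2 ratio was 21.5 ± 5.15 (SD, n = 3) in shCont, 32.9 ± 12.6 with shp16 and 14.5 ± 1.24 with shp16+shATR, and shCont and shp16 overlapped.

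**Figure D3:**
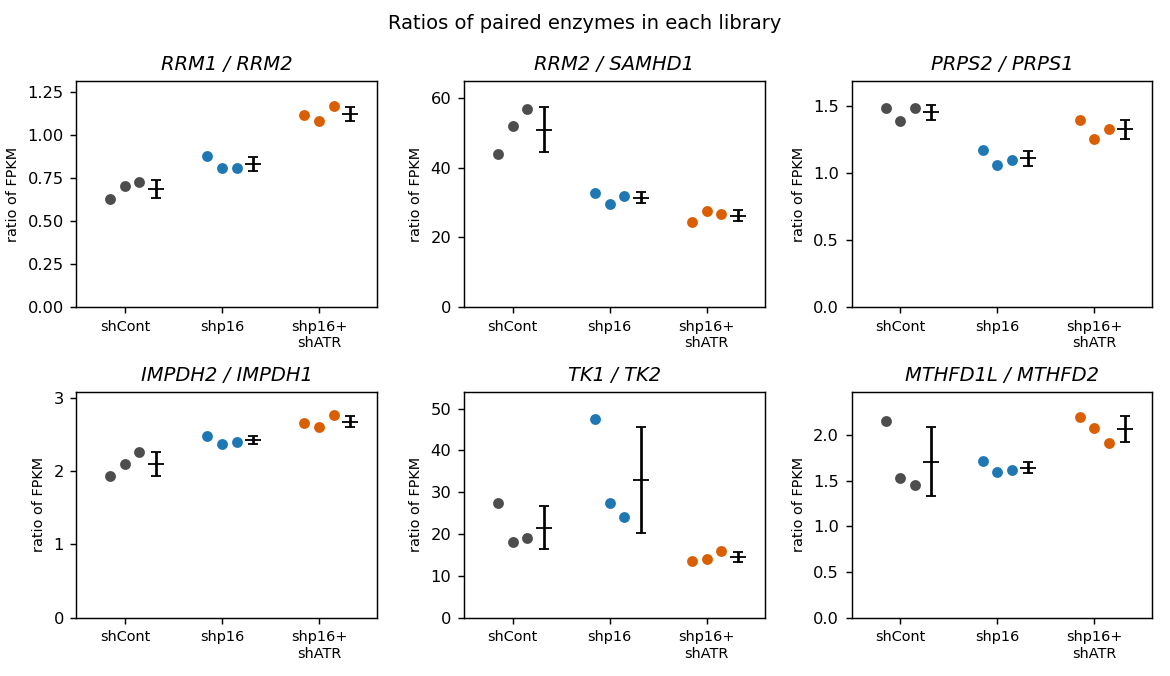
Ratio of the TMM-normalized FPKM of 6 pairs of enzymes (vertical axes, starting at 0), with 1 point per library and the mean and SD of 3 libraries beside them. RRM1 to RRM2 was at most 0.728 in shCont and at least 1.08 in shp16+shATR, and RRM2 to SAMHD1 was at least 44.1 in shCont and at most 32.6 in the other groups. MTHFD1L to MTHFD2 ran from 1.45 to 2.15 in shCont and overlapped both other groups.

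Among the folate enzymes MTHFD2 fell with ATR knockdown. MTHFD2, a mitochondrial enzyme that oxidizes folate-bound carbon, had 9.18, 10.2 and 10.6 FPKM in shCont, 12.3, 10.8 and 11.2 with shp16 and 6.87, 6.95 and 7.76 with shp16+shATR. The shp16+shATR libraries lay below the other 6. The log2 fold change was -0.67 ± 0.11 against shp16 (SE, adjusted p = 0.00496), 1.59-fold lower, and it passed the threshold in 19 of 19 alternatives. Against shCont it was -0.48 ± 0.11 (adjusted p = 0.0085), and in shp16 against shCont MTHFD2 had 0.19 ± 0.11 (adjusted p = 0.267).

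MTHFD1L, the next enzyme of the mitochondrial route, had -0.35 ± 0.12 in shp16+shATR against shp16 (SE, adjusted p = 0.138), with no overlap between these groups. The cytosolic enzymes MTHFD1 and SHMT1 had log2 fold changes of -0.07 and -0.16 in that comparison. MTHFD1 had 46.7 ± 0.813 FPKM in shCont, 50.8 ± 6.72 with shp16 and 48.5 ± 3.14 with shp16+shATR (SD, n = 3 each), differences within the spread of shp16.

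Genes for DNA replication and mitosis that are not in the set were counted beside the deoxynucleotide enzymes, because several of the latter are made in S phase. They, too, were chosen with earlier results of these data known. When ATR was knocked down on top of p16, 9 of the 25 genes were lower and 0 higher, against backgrounds over all genes tested of 3.49% and 2.73%. All 25 had a negative log2 fold change, and the median was -0.37, while that of all genes tested was 0.00. The 3 called genes that fell furthest were CLSPN, which couples ATR to its substrate kinase (-0.94, adjusted p = 0.0186), PRIM1, a primase subunit (-0.83, adjusted p = 0.0078), and MCM2, of the replicative helicase (-0.70, adjusted p = 0.00455). In shp16 against shCont 3 were higher and 1 lower, against backgrounds of 7.23% and 7.59%. The median was 0.15 and that of all genes tested -0.02, and GINS1 (0.62), CCNA2 (0.44) and FEN1 (-0.37) had the largest called changes. The summed level of the 25 genes ran from 929 to 1034 FPKM in shCont, from 1052 to 1160 with shp16 and from 861 to 896 with shp16+shATR. In shp16+shATR against shp16 the replication genes had the direction of the falls of RRM2 and TYMS. In shp16 against shCont their median had the sign of TYMS and the opposite sign to RRM2 (-0.19). In shp16+shATR against shCont 10 of the 25 were lower and 0 higher, against backgrounds of 12.7% and 10.9%. There RRM2 had -0.86 and TYMS -0.0039. The part of the replication genes in these results was not tested. In RNA from whole cultures, fewer cells in S phase and less RNA per cell cannot be told apart.

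**Figure D4:**
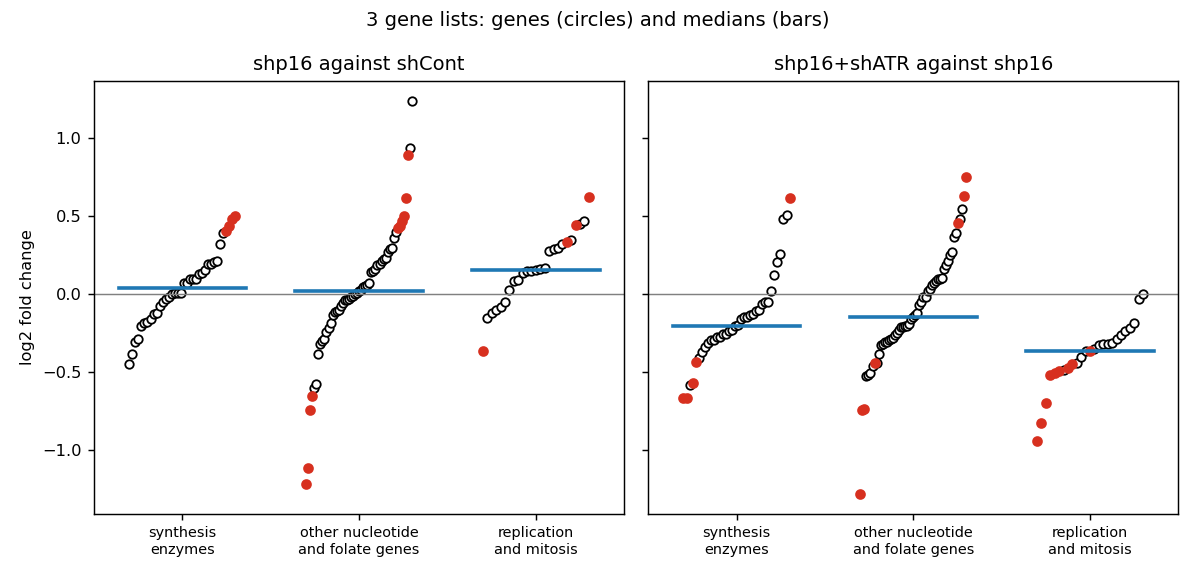
Log2 fold change (vertical axis) of each tested gene, as a circle, in the set of synthesis enzymes, in 53 other nucleotide and folate genes and in 25 replication and mitosis genes, with the list median as a bar; filled circles had an adjusted p under 0.05 in edgeR's test. The medians in shp16+shATR against shp16 (right) were -0.21, -0.15 and -0.37, and in shp16 against shCont (left) they were 0.03, 0.01 and 0.15.

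Of 55 further genes of nucleotide and folate metabolism, 53 were tested. In shp16 against shCont 6 were higher and 4 lower, against backgrounds over all genes tested of 7.23% and 7.59%. In shp16+shATR against shp16 3 were higher and 4 lower, against 2.73% and 3.49%. In shp16+shATR against shCont 6 were higher and 8 lower, against 10.9% and 12.7%. In shp16 against shCont the largest called changes were those of ADSSL1, the muscle-type isozyme of ADSS (-1.22, adjusted p = 0.00575), NT5E, the surface nucleotidase that makes adenosine (-1.12, adjusted p = 3.48e-05), and GLDC, which feeds glycine carbon to folate (0.89, adjusted p = 0.000657). ADSSL1 was at 1.52 FPKM in shCont, 0.653 with shp16 and 0.759 with shp16+shATR, far below ADSS in each group.

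The largest called changes of these genes in shp16+shATR against shp16 were those of DCTPP1, which hydrolyses deoxycytidine triphosphate (-1.29, adjusted p = 0.00357), TYMP, which cleaves thymidine (0.75, adjusted p = 0.0191), and SLC19A1, the folate carrier (-0.74, adjusted p = 0.00512). DCTPP1 had 32.8, 28.8 and 29.0 FPKM with shp16 and 11.5, 11.2 and 14.5 with shp16+shATR, a fall larger than that of any of the 36 enzymes. SLC19A1 had 4.97, 7.61 and 4.54 FPKM as the means of the 3 groups and was called higher in shp16 against shCont (0.61, adjusted p = 0.00643), with its shp16 libraries above the other 6 as for TYMS, PFAS and SAMHD1.

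**Figure D5:**
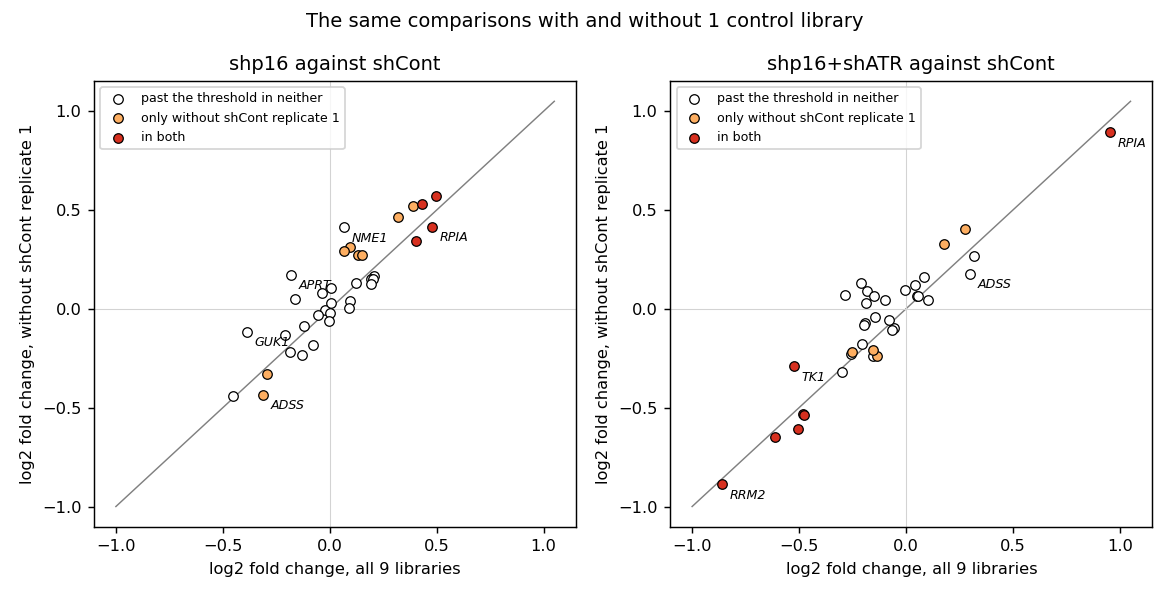
Log2 fold change of each of the 36 enzymes with all 9 libraries (horizontal axis) and without the library labelled shCont replicate 1 (vertical axis), in shp16 against shCont (left) and shp16+shATR against shCont (right); the diagonal marks equal values. The enzymes called with all libraries were also called without this one, and APRT went from -0.18 to 0.17 and NME1 from 0.07 to 0.41 in the left panel.

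Without the library labelled shCont replicate 1, the added calls in shp16 against shCont included ADSL (0.52, adjusted p = 0.00295), IMPDH2 (0.46, adjusted p = 0.00598) and ADSS (-0.44, adjusted p = 0.00118). These were chosen after their values were seen. With it, edgeR's biological coefficient of variation was 0.149, and 0.0903 otherwise.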

How the data were processed

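Raw read counts per gene and FPKM were deposited by the authors for 9 libraries. The counts carry no normalization, and the deposited FPKM equalled each count scaled by gene length and library total. The submitters' processing notes name STAR 2.6.1 and GRCh38, but the last gene of chromosome 1 ends at 249231242 in the tables, past the 248937099 of RefSeq's GRCh38 genes, so table coordinates were taken as GRCh37. Annotation, counting program and strand setting are not given in the sources used here. The shp16+shATR count columns, 3 in number, have identical names and are called a, b and c. No column was left out.

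Counts were fitted with edgeR 4.0.16 (R 4.3.3): TMM scaling, the filterByExpr filter on low counts, and the quasi-likelihood test on all 9 libraries with 1 coefficient per group and Benjamini-Hochberg adjustment over 15776 genes. TMM-normalized FPKM were computed from the counts. Fold changes have no added pseudocount other than edgeR's prior. The scripts were tested on simulated data. Ratios and summed levels are descriptions without a test, and no background share was computed for their overlap between groups. The enzymes past an adjusted p of 0.05 were named with values, and of the other lists the 3 with the largest called changes in each of the first 2 comparisons. The set and the lists were chosen with earlier results of these data known. Promoter windows and gene starts came from RefSeq on GRCh38.p14, with motifs searched on both strands.

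Alternatives were DESeq2 1.42.0, upper-quartile and library-size scaling, a filter of at least 10 counts in every library or none, fitting the 6 compared libraries alone, the replicate number as a block, limma 3.58.1 on log2 FPKM with 1 or 0.1 added (FPKM of at least 1 in 3 libraries, or no filter), an adjusted p of 0.01, and each library left out in turn.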

Additional observations from a re-analysis of the deposited data

How the results depend on the processing

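Among 2088 recalculated log2 fold changes of single enzymes, 1887 kept their direction and their side of the threshold, 71 passed it anew, 70 lost it and 60 changed sign. The 4 enzymes called in shp16 against shCont became 2 (1 higher, 1 lower) with upper-quartile scaling, 0 in the fit of 6 libraries (7 at an unadjusted p under 0.05), 1 with limma and no filter, and 0 at an adjusted p of 0.01, while the share of all genes went from 14.8% to 15.2%, 7.83%, 4.76% and 6.30%. The enzymes called ranged from 0 to 12 with a library left out (12 without shCont replicate 1, 2 without shCont replicate 2, 1 without shp16 replicate 1 or 2, and 0 without shCont replicate 3, shp16 replicate 3 or shp16+shATR library a). The share of all genes called in these fits ran from 8.29% without shp16 replicate 3 to 25.9% without shCont replicate 1. It was 10.1% without shCont replicate 2, 14.3% without shCont replicate 3 and 10.6% without shp16+shATR library a. The median log2 fold change of the enzymes was -0.026 with upper-quartile scaling, which moved the median of all genes to -0.07, and ranged from -0.025 to 0.092 with a library left out. In shp16+shATR against shp16 the 5 became 18 in the fit of 6 libraries and 3 at an adjusted p of 0.01, while the share of all genes went from 6.22% to 18.9% and 1.96%. The enzymes called ranged from 2 to 19 with a library left out (19 without shCont replicate 1, 3 without shp16 replicate 2 or 3 or shp16+shATR library b or c, and 2 without library a), with medians from -0.23 to -0.15. The share of all genes called in these fits ran from 1.81% without library b to 19.9% without shCont replicate 1. It was 1.85% without library a. In shp16+shATR against shCont the 7 ranged from 4, without shp16+shATR library a, to 12, without shCont replicate 1, with medians from -0.20 to -0.051. The share of all genes called was 14.5% without library a and 33.3% without shCont replicate 1. With the replicate number as a replicate block, edgeR on the shCont and shp16 libraries called 0 enzymes (6 at an unadjusted p under 0.05, and 423 genes in all) and limma on log2 FPKM called 1 (1181 genes in all). Same-numbered libraries deviated from their group means with correlations from -0.31 to 0.27, and different-numbered libraries with correlations from -0.37 to 0.42. With 3 libraries in each group these values cannot decide whether the numbers pair the samples.

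The sign changes were all in enzymes not called in that comparison. In shp16 against shCont, GMPS had -0.058 with upper-quartile scaling, -0.015 with library size, -0.012 with the edgeR replicate block, and with limma -0.019 with 1 added, with no filter and with the replicate block and -0.020 with 0.1 added. HPRT1 had -0.055 with upper-quartile scaling, -0.0032 with library size, and with limma -0.0036 with 1 added, with no filter and with the replicate block and -0.0037 with 0.1 added. CAD had 0.0031 with DESeq2 and 0.011 with no filter. DHODH had -0.055 with upper-quartile scaling and -0.00035 with limma and 0.1 added. With a library left out, the values in this comparison ranged for APRT from -0.34 to 0.17, CAD from -0.061 to 0.029, DCK from -0.23 to 0.018, DHODH from -0.062 to 0.10, DTYMK from -0.29 to 0.052, GMPS from -0.15 to 0.080, HPRT1 from -0.023 to 0.029, IMPDH1 from -0.012 to 0.31, NME1 from -0.094 to 0.41, PAICS from -0.077 to 0.013, PPAT from -0.18 to 0.013, RRM1 from -0.017 to 0.17, SHMT1 from -0.10 to 0.080 and TK1 from -0.049 to 0.29. In shp16+shATR against shp16, DTYMK had -0.00095 with no filter, and the ranges were DTYMK from -0.019 to 0.050 and MTHFD1 from -0.13 to 0.043. In shp16+shATR against shCont, TYMS had 0.0085 with DESeq2 and 0.0060 with at least 10 counts, and the ranges were APRT from -0.45 to 0.068, ATIC from -0.020 to 0.12, DTYMK from -0.28 to 0.067, DUT from -0.19 to 0.044, GUK1 from -0.31 to 0.091, IMPDH1 from -0.30 to 0.032, NME1 from -0.40 to 0.13 and TYMS from -0.077 to 0.094. The cause of these changes was not tested.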
